A study of Mus musculus with 45 samples.

Results

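Hepcidin and 9 other genes that handle iron were followed across liver, kidney and brain of mice fed a high-cholesterol diet with extracts of the mushroom Ganoderma lucidum or with simvastatin, a statin that blocks cholesterol synthesis. The genes were Hamp, Hamp2, Bmp6, Tfrc, Tfr2, Trf, Slc40a1, Hfe, Hfe2 and Slc11a2, and all 10 were found among the 22080 genes of the array table. They were chosen by measured values of these arrays, because Hamp2 was lower in liver under all 3 treatments than under the high-cholesterol diet alone. The liver comparisons of each treatment with the high-cholesterol diet are therefore given as a description, with no test, and so are the liver values of Hamp2 in every comparison of diets. How often these Hamp2 values passed the threshold for a call is given only to show its dependence on the processing.

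Male C57BL/6 mice, 7 weeks old, received 1 of 5 diets, with 8 mice per diet. Control mice were fed the AIN-93 diet, HCD mice that diet with 0.5% cholesterol, and the remaining groups HCD with 1.0% of the Gl-1 extract, with 1.0% of the Gl-2 extract, or with simvastatin at 0.03 g per 100 g of food (the groups HCD+Gl-1 and HCD+Gl-2 for the extracts, and HCD+Sim for the statin). The Gl-2 extract came from mushrooms cultivated on a substrate to which acetylsalicylic acid had been added, and the Gl-1 extract from mushrooms cultivated without it. Mice were sacrificed on day 43 after food and water had been withheld, and whole-tissue RNA was hybridized to 45 Affymetrix mouse gene arrays, 3 for each of the 15 groups of tissue and diet. The 8 mice gave pools A and B with 4 mice in each, and pool C was prepared by mixing these, so 3 arrays stood for 2 separate pools, and p-values measure the spread between these arrays.

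Hepcidin is a small hormone made by hepatocytes that binds ferroportin (Slc40a1), the only known cellular exporter of iron, and causes its removal from the cell surface, so that less iron enters the blood. The liver sets hepcidin by iron load through a BMP and SMAD pathway, in which the ligand BMP6 signals with the help of hemojuvelin (Hfe2, now named Hjv), HFE and transferrin receptor 2 (Tfr2), and by inflammation through interleukin-6 and STAT3. Transferrin (Trf) carries iron in blood, transferrin receptor 1 (Tfrc) takes it into cells, and Slc11a2, or DMT1, moves it across the membranes of the gut and of endosomes. Mice carry a pair of neighbouring hepcidin genes, of which Hamp encodes the iron-regulating hormone, whereas Hamp2 has not been shown to act on iron balance in the same way.

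The pair of hepcidin promoters is printed because Hamp and Hamp2 did not have the same pattern across the diets. RefSeq places both genes on the minus strand of chromosome 7, with the pseudogene Usf2-ps1 between them. Each sequence holds the 250 bases before the gene start of RefSeq on GRCm38.p6, written 5′ to 3′ on the gene's strand, at chr7:30944030-30944279 for Hamp and at chr7:30924182-30924431 for Hamp2. Capitals mark the motifs searched, which were GGCGCC (the core of a BMP response element), TTCNNNGAA (a STAT motif), TGANTCA (an AP-1 motif) and CACGTG (an E-box).
Hamp: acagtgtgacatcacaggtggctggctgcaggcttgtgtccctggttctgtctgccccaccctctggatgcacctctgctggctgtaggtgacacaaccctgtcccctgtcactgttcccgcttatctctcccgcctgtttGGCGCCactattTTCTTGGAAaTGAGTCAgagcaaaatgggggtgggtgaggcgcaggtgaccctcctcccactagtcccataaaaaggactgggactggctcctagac
Hamp2: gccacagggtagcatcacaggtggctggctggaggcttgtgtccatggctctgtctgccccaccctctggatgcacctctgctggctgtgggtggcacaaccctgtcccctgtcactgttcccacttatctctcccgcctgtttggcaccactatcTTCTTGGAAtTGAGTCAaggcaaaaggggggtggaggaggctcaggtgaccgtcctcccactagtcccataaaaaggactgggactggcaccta

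The windows aligned over 247 bases, of which 227 were identical (91.9%), with 20 substitutions and 6 bases opposite a gap. Both held TTCTTGGAA and TGAGTCA, side by side and separated by a single base. GGCGCC was found in the Hamp window, where its first letter is position 142 counted from 1 at the 5′ end, and was interrupted in the aligned Hamp2 window by the substitution G145A (the Hamp base, its position, then the Hamp2 base). CACGTG was found in neither. Each pattern searched, with N for any base, reads the same on both strands, and no match overlapped another in the windows. Of the 32851 promoter windows of the same length in the RefSeq table, 9.59% held GGCGCC, 7.02% TTCNNNGAA, 6.75% TGANTCA and 6.02% CACGTG. A window was found for 6 of the 10 genes, and Trf, Slc40a1, Hfe2 and Slc11a2 had none in the table. A match describes the letters of the window and is not evidence of binding. Because the pair of transcripts is closely related, and the match of each probe to both was not examined, part of either value may come from the other gene.

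Before the values are read, the liver arrays of pool C need a remark. A mix of pools A and B should give values between or near theirs. In the treated livers it did not for 12 acute phase proteins, which the liver secretes in inflammation. Their mean log2 value in pools A, B and C was 10.91, 11.18 and 9.91 in HCD+Gl-1, 10.69, 10.93 and 9.54 in HCD+Gl-2, and 11.07, 11.24 and 9.40 in HCD+Sim, against 9.97, 9.76 and 9.87 in HCD. Pool C was below both other pools for 9, 10 and 12 of the 12 genes in these 3 treated groups. In Control livers it was above both for 7 of the 12 and below both for 0, with means of 10.52, 10.15 and 10.76 in pools A, B and C. In HCD livers it was above both for 5 and below both for 4. A value outside was common: of all genes in liver, pool C lay between the other pools for 26.1% (HCD+Sim) to 33.4% (HCD+Gl-2). The liver arrays HCD+Sim A and B also carried transcripts of other tissues. The mean log2 value of 12 pancreas acinar cell genes was 7.48 and 8.01 there and 6.03 to 6.31 on every other liver array. That of 10 skeletal muscle genes was 7.49 and 7.88, against 6.40 in HCD+Sim C. It was 6.83, 6.91 and 6.73 in pools A, B and C of Control, and 6.11 to 6.47 in HCD, HCD+Gl-1 and HCD+Gl-2. The part of this muscle signal in differences from Control was not tested. All 8 hepatocyte genes were higher on every liver array than on every array of another tissue, as were all 8 kidney tubule genes in kidney, and 7 of 8 brain genes in brain, Aqp4 being the exception. Liver differences of the genes described are therefore also given for pools A and B alone.

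**Figure D1:**
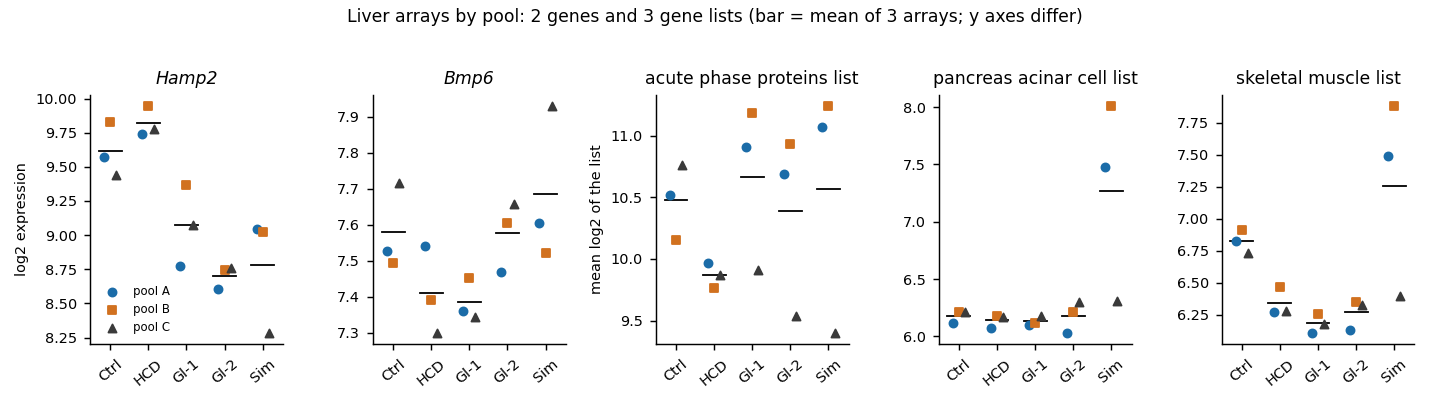
Log2 expression of Hamp2 and Bmp6 and the mean log2 expression of 3 gene lists (y axes, which differ) on each liver array by diet (x axis). Circles, squares and triangles are pools A, B and C and the bars are means of 3 arrays. Pool C lies below pools A and B for the acute phase list in all 3 treated groups, and the acinar and muscle lists are raised on arrays A and B of HCD+Sim.

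Hamp2 was lower in liver under each treatment than under HCD, and this is the pattern for which the genes were chosen. In HCD the values of pools A, B and C were 9.74, 9.95 and 9.78, and in Control 9.57, 9.83 and 9.44. In HCD+Gl-1 they were 8.77, 9.36 and 9.07, in HCD+Gl-2 8.61, 8.75 and 8.76, and in HCD+Sim 9.04, 9.02 and 8.28. Every one of the 9 arrays of treated livers lay below all 3 Control and all 3 HCD arrays, the highest of them being pool B of HCD+Gl-1. Against HCD alone, 14.7% of all genes had no overlap for Gl-1, 15.2% for Gl-2 and 13.4% for simvastatin, in either direction. The share of genes apart from both Control and HCD was not computed. Against HCD the log2 difference was -0.75 (SE 0.17) for Gl-1, -1.12 (SE 0.17) for Gl-2 and -1.04 (SE 0.17) for simvastatin, or 1.68, 2.17 and 2.05-fold lower. Against Control the same groups differed by -0.54, -0.91 and -0.83, and HCD itself by 0.20 (SE 0.17), with Control and HCD arrays overlapping. Without pool C these differences from Control were -0.63, -1.03, -0.67 and, for HCD, 0.14. These comparisons share the HCD or the Control arrays.

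The threshold for a call was an absolute log2 difference over 0.7 with an adjusted p of at most 0.05. In each of the 3 comparisons of a treatment with HCD, Hamp2 was the 1 gene of the 10 past it, where 0.163% of all genes were called for Gl-1, 0.303% for Gl-2 and 0.258% for simvastatin. Nothing is read from these counts, since the rule used them. They do not hold in every processing: when the model was fitted to liver arrays without those of other tissues, with or without renewed quantile normalization, or to the compared groups without the others, Hamp2 was not called for Gl-1 or for simvastatin. The call for Gl-1 was also lost with pools A and B alone, and without array B of HCD or array A or C of HCD+Gl-1. With pools A and B alone the log2 differences from HCD were -0.77, -1.17 and -0.81 for Gl-1, Gl-2 and simvastatin. For simvastatin, array C, which lacked the acinar and muscle signal, had the lowest Hamp2 value of any liver array, -1.54 relative to the HCD mean, whereas arrays A and B were at -0.78 and -0.80. For Gl-1 the value rested on pool A (-1.05 relative to the HCD mean) more than on pool B (-0.46), and for Gl-2 the 3 arrays were at -1.06 to -1.21. The part of the acute phase, acinar and muscle signals in the Hamp2 values was not tested. In whole tissue, fewer cells of a type and less RNA per cell cannot be told apart. The hepatocyte list had a mean log2 value of 12.89 to 13.09 on every liver array, near the upper end, where a change may be understated. The mean of 8 liver sinusoidal endothelium genes was 8.76 to 8.84 in Control, 8.74 to 8.84 in HCD and 8.55 to 8.68 in HCD+Gl-1. It was 8.50 to 8.81 in HCD+Gl-2 and 8.75 to 8.87 in HCD+Sim, and its part in the values was not tested.

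Hamp did not share the low values of Hamp2. Its values in pools A, B and C were 13.52, 13.50 and 13.19 in Control and 13.60, 13.58 and 13.64 in HCD. They were 13.53, 13.44 and 13.63 in HCD+Gl-1, 13.59, 13.48 and 13.29 in HCD+Gl-2, and 13.62, 13.56 and 12.99 in HCD+Sim. All treated groups overlapped HCD, and the log2 differences were -0.07, -0.15 and -0.21 (SE 0.13). With pools A and B alone they were -0.10, -0.05 and 0.00, so the value for simvastatin came from array C. Against Control the adjusted p of limma was 0.644 for Gl-1, 0.928 for Gl-2 and 0.985 for simvastatin, and for HCD it was 0.656 (log2 difference 0.20, SE 0.13), although every HCD array was above every Control array, as held in either direction for 14.9% of all genes. The difference of HCD from Control was 0.08 over pools A and B, since Control array C had the lowest Control value. Hamp ranked between 10th and 49th from the top of the 22080 genes on the liver arrays, whose own maxima lay at 13.85 to 13.98, so the signal was close to the upper end of the range and a change there may be understated. Whether it was understated was not tested.

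**Figure D2:**
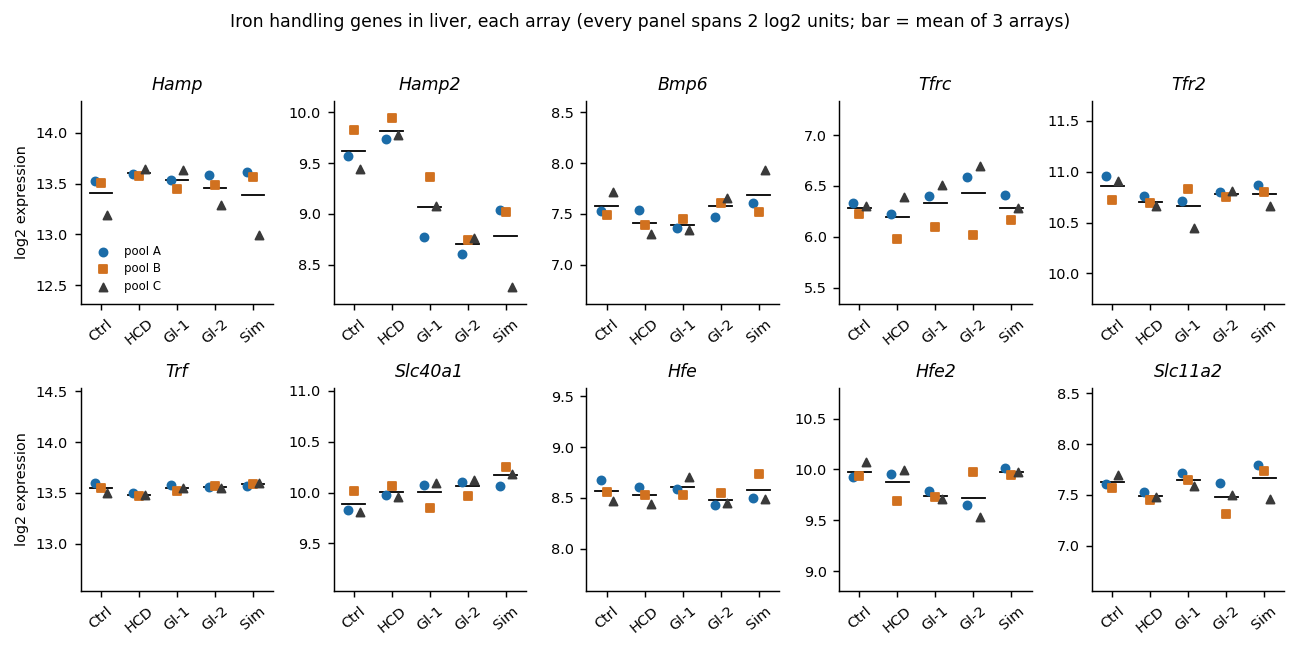
Log2 expression (y axes, each spanning 2 log2 units) of the 10 genes on every liver array by diet (x axis), with circles, squares and triangles for pools A, B and C and bars for means of 3 arrays. The Hamp2 points of the 3 treated groups lie at 8.28 to 9.36, below those of Control and HCD at 9.44 to 9.95, and no other gene shows such a step.

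The genes upstream of hepcidin had small differences in liver. Bmp6, the ligand that reports liver iron to hepatocytes, read 7.53, 7.49 and 7.72 in Control, 7.54, 7.39 and 7.30 in HCD, 7.36, 7.45 and 7.34 in HCD+Gl-1, 7.47, 7.61 and 7.66 in HCD+Gl-2, and 7.61, 7.52 and 7.93 in HCD+Sim. The highest value was again array C of HCD+Sim, the array with the lowest Hamp and Hamp2. The log2 difference of simvastatin from HCD was 0.27 (SE 0.08) over all arrays and 0.10 over pools A and B alone, and both groups overlapped. Those of Gl-1 and Gl-2 were -0.02 and 0.17 over all arrays, and -0.06 and 0.07 over pools A and B. Hfe2, the BMP co-receptor hemojuvelin, read 9.93, 9.93 and 10.07 in Control, 9.79, 9.72 and 9.71 in HCD+Gl-1, and 9.65, 9.97 and 9.53 in HCD+Gl-2. Its differences from Control were -0.24 (SE 0.09, adjusted p = 0.15) for Gl-1 and -0.26 (SE 0.09, adjusted p = 0.148) for Gl-2, and neither passed. Over pools A and B they were -0.17 and -0.12, and without array B of HCD+Gl-2 the latter was -0.38 (adjusted p = 0.0125). Tfr2, which senses iron-loaded transferrin, lay between 10.44 and 10.96 on all liver arrays, and Hfe, its partner, between 8.43 and 8.74, with no diet apart from the others.

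Across the 15 liver arrays Hamp and Bmp6 ran opposite to each other, with Pearson's r = -0.849 and Spearman's rho = -0.661. Without the 2 arrays farthest from the Bmp6 median, r was -0.672, and r of the deviations from each diet's mean was -0.889, so the relation lay between arrays of a diet. The arrays share pools and diets, and the values are a description. Hamp and Hamp2 had r = 0.431 and rho = 0.332 over the same arrays. Their r was 0.063 without the 2 arrays farthest from the Hamp2 median, and 0.602 for the deviations from each diet's mean.

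The transporters and carriers of iron likewise stayed close together in liver. Slc40a1, or ferroportin, read 9.83, 10.02 and 9.81 in Control, 9.98, 10.07 and 9.96 in HCD and 10.07, 10.25 and 10.18 in HCD+Sim. The simvastatin mean was 0.28 above that of Control (SE 0.09; 0.24 over pools A and B), but the adjusted p of limma was 0.111. Tfrc, the receptor that brings transferrin iron into cells, spread more within groups than between them: in HCD+Gl-2 its values were 6.58, 6.01 and 6.70, and its difference from HCD was 0.23 (SE 0.12; 0.20 over pools A and B). Trf was the least variable of the 10 in liver, with all 15 arrays between 13.47 and 13.60. Its 3 HCD values of 13.50, 13.47 and 13.48 lay below every array of each treated group, by 0.06 to 0.10 on average (0.07 to 0.10 over pools A and B; SE 0.12, which is shared with the more variable brain arrays), where 14.7%, 15.2% and 13.4% of all genes had no overlap for Gl-1, Gl-2 and simvastatin, and it too was near the top of the range. Slc11a2 lay between 7.31 and 7.79, with differences from HCD of 0.16 for Gl-1, -0.01 for Gl-2 and 0.18 for simvastatin (SE 0.08). Without pool C these were 0.19, -0.02 and 0.28, and array C of HCD+Sim on its own differed from HCD by -0.03. Over the 9 genes other than Hamp2, the differences of the treatments from HCD ran from -0.21 to 0.27.

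In the liver tests that the choice of genes had not used (HCD and each treatment against Control, 9 genes in 4 comparisons), 0 of 36 were called by limma, with 6 at an unadjusted p under 0.05. The lowest adjusted p, 0.111, was that of Slc40a1 above. Among all genes, 0.245% were called for HCD against Control, 0.322% for Gl-1, 0.584% for Gl-2 and 0.358% for simvastatin against Control.

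**Figure D3:**
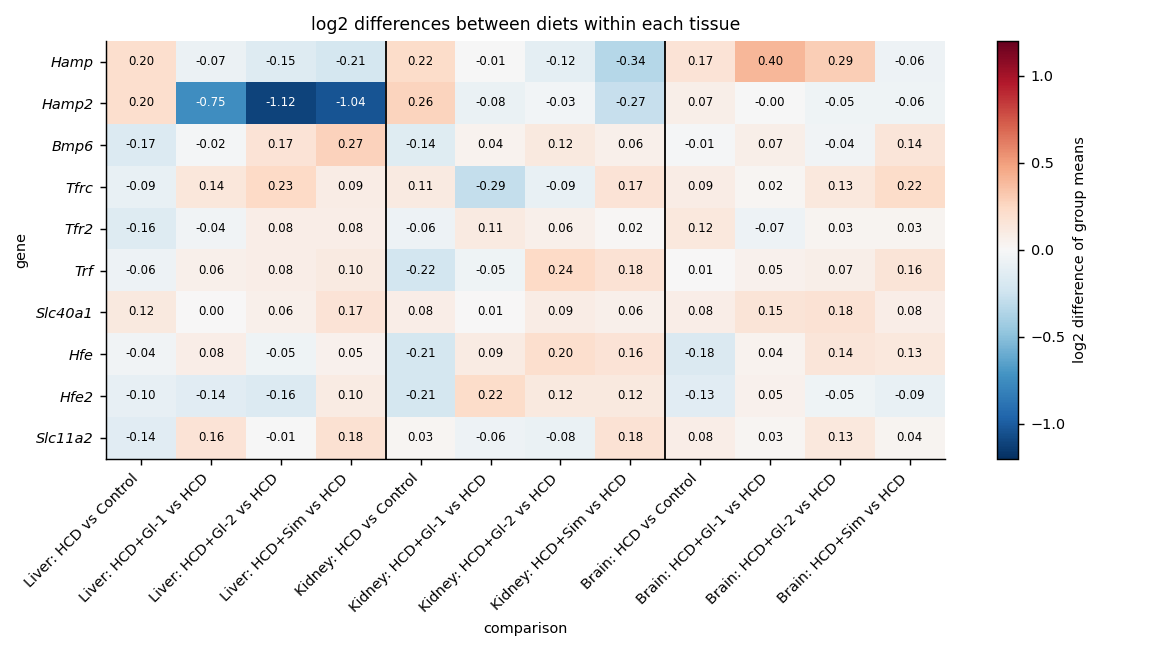
Log2 difference (colour and printed value) of each gene (rows) in 4 comparisons of diets per tissue (columns; HCD with Control, then each treatment with HCD). The 3 liver values of Hamp2, -0.75, -1.12 and -1.04, stand apart, and all other values lie between -0.34 and 0.40.

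In kidney no diet gave a call for any of the 10 genes. Over the 7 comparisons of diets, 0 of 70 tests were called by limma, with 11 at an unadjusted p under 0.05 and a lowest adjusted p of 0.361. Of all genes, 0.0408% were called for HCD against Control, 0.131% for Gl-1, 0.335% for Gl-2 and 0.14% for simvastatin against HCD. Against Control the shares were 0.00906%, 0.217% and 0.0317% in the same order. Hamp2 read 5.78, 6.14 and 6.22 in kidney HCD, 6.27, 5.82 and 5.82 in HCD+Gl-1, 6.15, 6.11 and 5.78 in HCD+Gl-2 and 5.66, 5.64 and 6.01 in HCD+Sim, and each treated group overlapped HCD. The log2 differences were -0.08 for Gl-1 and -0.03 for Gl-2 (SE 0.17, adjusted p = 1 and 0.993), and -0.27 for simvastatin (adjusted p = 0.874). The lowest adjusted p belonged to Hfe with Gl-2, whose values of 7.37, 7.40 and 7.42 were above those of HCD at 7.26, 7.08 and 7.24, a difference of 0.20 (SE 0.08). Hamp read 4.76, 4.60 and 4.65 with simvastatin and 4.80, 5.07 and 5.15 in HCD, a difference of -0.34 (SE 0.13, adjusted p = 0.611), among low values at which background weighs more.

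In brain 0 of 70 tests were called by limma, with 10 at an unadjusted p under 0.05. Among all genes 0.0317% were called for HCD against Control, 0.00906% for Gl-1, 0.0226% for Gl-2 and 0% for simvastatin against HCD, and 0.00453%, 0.186% and 0.00906% for the same treatments against Control. Hamp came nearest. Its values were 4.85, 5.08 and 4.72 in brain Control, 4.90, 5.20 and 5.05 in HCD, 5.44, 5.43 and 5.48 in HCD+Gl-1, 5.52, 5.46 and 5.05 in HCD+Gl-2, and 4.97, 4.93 and 5.08 in HCD+Sim. The difference from Control was 0.57 for Gl-1 (SE 0.13, adjusted p = 0.0878) and 0.46 for Gl-2 (SE 0.13, adjusted p = 0.0563), whose array C overlapped Control. Both differences passed the adjusted p with pools A and B alone, at 0.47 (adjusted p = 0.0134) for Gl-1 and 0.52 (adjusted p = 0.00503) for Gl-2, and stayed under the fold threshold. Over all alternatives the adjusted p passed in 2 for Gl-1 and 4 for Gl-2. These values are near those of kidney and far below those of liver. Hamp2 in brain lay between 5.92 and 6.31 on all 15 arrays.

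Differences between tissues in the response of these genes to a diet were tested where the choice had not used them, namely the HCD response of liver against kidney and brain, and each treatment's response in kidney against brain. Of these 48 tests 0 were called by limma and the lowest adjusted p was 0.574, with 2 at an unadjusted p under 0.05. Of all genes 0.149% and 0.19% were called for the HCD response of liver against kidney and against brain, and 0.159%, 0.326% and 0.163% for the Gl-1, Gl-2 and simvastatin responses of kidney against brain. How the liver response of Hamp2 to the treatments compares with kidney and brain is a description only, since the liver values chose the gene.

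Across tissues, 4 genes of hepcidin and its control were far higher in liver than elsewhere. Averaged over the 5 diets, Hamp was higher in liver than in kidney by 8.61 and than in brain by 8.33 on the log2 scale (SE 0.06), and Hamp2 by 3.28 and 3.05 (SE 0.08). The liver mean was 13.48 ± 0.18 for Hamp and 9.20 ± 0.51 for Hamp2 (SD, n = 15 arrays), and the wider SD of Hamp2 spans the difference between diets. Tfr2 and Hfe2, which take part in setting hepcidin, were higher in liver than in kidney by 4.96 and 3.37, and than in brain by 4.60 and 3.32. The adjusted p of limma for these 8 differences was at most 2.01e-31. Hfe had a graded pattern, with liver 1.23 above kidney (adjusted p = 1.78e-28) and kidney 0.84 above brain (adjusted p = 3.87e-23).

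The remaining genes had other orders. Trf was 13.55 ± 0.04 in liver, 11.59 ± 0.21 in brain, where oligodendrocytes make it, and 7.83 ± 0.16 in kidney (SD, n = 15 arrays each). Slc40a1 stepped down from liver (10.02 ± 0.13) to kidney (8.40 ± 0.10) and again to brain (6.44 ± 0.14), each step being past the threshold. Bmp6 and Slc11a2 were highest in kidney, with liver minus kidney at -1.67 and -1.29, whereas liver and brain did not differ beyond their spread (Bmp6 -0.06, adjusted p = 0.108; Slc11a2 -0.01, adjusted p = 0.84). Tfrc was lowest in liver, at -1.87 relative to kidney and -1.71 relative to brain, and kidney and brain differed by 0.15 (adjusted p = 0.0117), under the fold threshold. Of the 10 genes, 10 were called between liver and kidney, 8 between liver and brain and 5 between kidney and brain, beside 16.5%, 32.4% and 30% of all genes. The sources used here do not name the batches that ComBat adjusted, and whether that step altered differences between tissues was not tested. Arrays of different tissues may share mice. The tests between tissues, including those of diet responses, treated all arrays as independent.

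**Figure D4:**
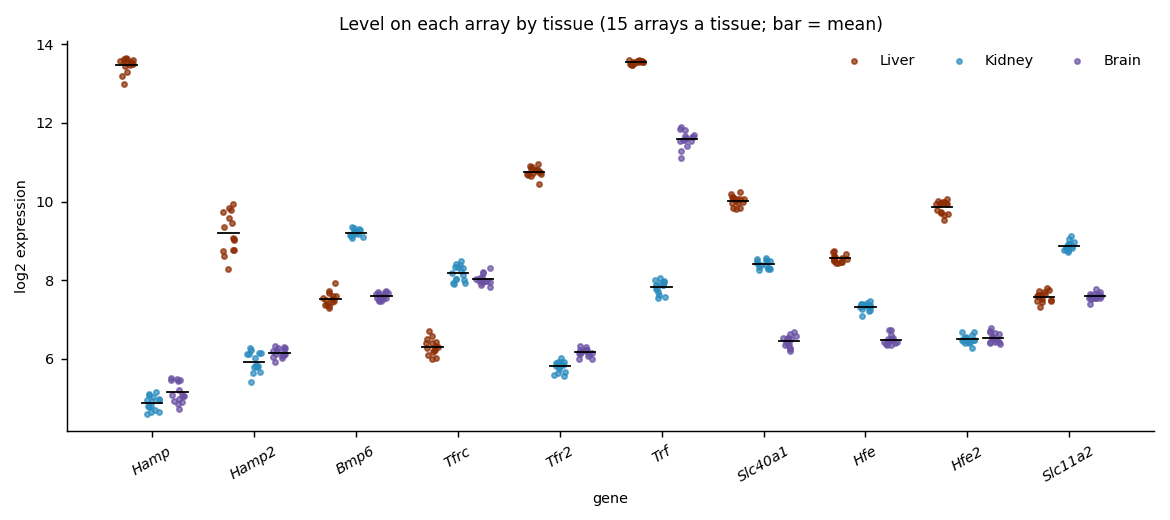
Log2 expression (y axis) of the 10 genes (x axis) on each of 15 arrays of liver, kidney and brain, with bars for the mean of a tissue. Hamp lies at 12.99 to 13.64 in liver and at 4.60 to 5.52 elsewhere, Trf is high in liver and brain, and Bmp6 and Slc11a2 are highest in kidney; levels of different genes come from different probes and are not comparable.

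By Pearson's r over the 15 liver arrays, the 5 genes most like Hamp2 were Eno1b (0.877), Gm5177 (0.86), Acsl5 (0.859), which activates long-chain fatty acids, the water channel Aqp8 (0.855), and the kinase Camk1d (0.849). Those most like Hamp were the organic anion transporter Slco1b2 (0.859), the BMP ligand Bmp5 (0.822), Stxbp3a (0.822), the complement regulator C4bp (0.818) and the cytochrome P450 Cyp2c50 (0.818). These are the highest of 22080 values over arrays that share diets and pools, and are given as a description.

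The wider machinery of iron and haem was followed in 63 other genes, in lists for the BMP and SMAD branch, the interleukin-6 and STAT3 branch, iron storage, iron transport, haem synthesis and breakdown, and scavengers of haem and iron carriers. Between HCD and Control in liver, 2 of the 63 rose and 1 fell at an adjusted p of at most 0.05, beside 1.34% of all genes, and the median log2 difference was -0.001 for the 63 and -0.012 for all genes. Stat3, the factor through which interleukin-6 acts on hepcidin, fell by 0.37 (SE 0.07, adjusted p = 0.00141), from 9.86, 9.79 and 9.92 in Control to 9.46, 9.48 and 9.51 in HCD. It also fell by 0.38 with Gl-2 against Control (SE 0.07, adjusted p = 6e-04), where its values were 9.52, 9.42 and 9.51. Both differences were -0.35 with pools A and B alone. The adjusted p was lost in 2 of 13 alternative settings for HCD (liver arrays only and the compared groups only) and in 1 of 13 for Gl-2 (the compared groups only). With Gl-1 they were 9.86, 9.78 and 9.89, and with simvastatin 9.69, 9.74 and 9.68. The mean of 8 Kupffer cell genes was 8.23 to 8.35 in Control livers and 7.97 to 8.03 in HCD livers, and that of the acute phase list 10.15 to 10.76 and 9.76 to 9.97. The part of either in the Stat3 values was not tested. Slc25a37, or mitoferrin 1, which brings iron into mitochondria, rose by 0.33 in HCD (adjusted p = 0.0219; 0.39 with pools A and B alone). This was under the fold threshold, and the adjusted p was lost in 8 of 13 alternative settings. Against Control it also rose by 0.42 with Gl-2 (adjusted p of limma 0.000935) and by 0.32 with simvastatin (adjusted p of limma 0.0275). These passed in 11 of 13 and 6 of 14 settings, and were 0.50 and 0.38 with pools A and B alone. Against Control, 1 of the 63 rose and 0 fell with Gl-1, 2 rose and 1 fell with Gl-2, and 3 rose and 0 fell with simvastatin, beside 3.58%, 2.86% and 1.54% of all genes. The counts of genes that rose and fell with pools A and B alone were 1 and 3 for HCD, 3 and 0 for Gl-1, 3 and 2 for Gl-2, and 2 and 0 for simvastatin, and Lcn2 was among them in each. Of all genes, 1.36%, 2.12%, 3.04% and 1.64% passed in the same comparisons with pools A and B alone.

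Alas1, the rate-limiting enzyme of haem synthesis in liver, rose in all 4 comparisons with Control. Its values were 11.24, 11.44 and 11.10 in Control and 11.51, 11.71 and 11.50 in HCD. They were 12.01, 11.90 and 12.06 with Gl-1, 12.10, 11.98 and 12.18 with Gl-2, and 11.62, 11.74 and 11.50 with simvastatin. Every array of both extract groups was above every Control, HCD and simvastatin array. Against HCD alone, 14.7% of all genes had no overlap for Gl-1 and 15.2% for Gl-2, in either direction. Against Control the log2 difference was 0.73 for Gl-1 (SE 0.08, adjusted p = 3.32e-07) and 0.83 for Gl-2 (SE 0.08, adjusted p = 1.23e-08), and both passed in all 13 alternative settings. It was 0.31 for HCD (adjusted p = 0.0474) and 0.36 for simvastatin (adjusted p = 0.0141), which passed in 3 of 13 and 6 of 14 settings. Over pools A and B the differences were 0.61 for Gl-1, 0.70 for Gl-2, 0.27 for HCD and 0.34 for simvastatin, and those of HCD and simvastatin did not pass. These 4 comparisons share the Control arrays.

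In the comparisons with HCD that the choice of genes used, given with no test, the 63 genes had median log2 differences of -0.011 for Gl-1, 0.007 for Gl-2 and 0.02 for simvastatin. With Gl-1 the ferrireductase Steap4 was 0.81 higher (SE 0.13), with values of 10.24, 10.16 and 10.37 against 9.50, 9.34 and 9.51, and the haemoglobin scavenger receptor Cd163 was 0.43 higher. These were 0.78 and 0.46 over pools A and B. Among 15 genes of the BMP and SMAD branch, Smad6, an inhibitor of the pathway, differed by -0.37 with Gl-1, -0.125 with Gl-2 and 0.0035 with simvastatin. Smad7, of the same list, differed by -0.08, 0.21 and 0.09 in that order. Atoh8, a factor that responds to BMP signals, differed by -0.31 with Gl-1, -0.36 with Gl-2 and -0.22 with simvastatin. Without pool C Smad6 differed by -0.40, -0.07 and 0.01, Smad7 by -0.17, 0.11 and 0.04, and Atoh8 by -0.35, -0.50 and -0.22. Id1, a common target of BMP signals, lay between 7.15 and 7.50 on all liver arrays. The storage genes, 8 in number, differed by -0.14 to 0.24 across the 3 treatments. The siderophore binder Lcn2, itself raised in inflammation, followed the pools in the treated livers, with 11.87, 12.31 and 9.32 in HCD+Gl-1, 11.14, 11.81 and 9.02 in HCD+Gl-2 and 12.23, 12.60 and 9.02 in HCD+Sim, against 9.34, 9.07 and 9.26 in HCD. Array C of each treated group thus lay below arrays A and B for Lcn2, as it did for the mean of the acute phase list. In Control livers Lcn2 read 10.60, 10.33 and 10.71. The difference of HCD from Control was -1.32 over all arrays, where its adjusted p did not pass. Over pools A and B it was -1.26, where it passed.

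In kidney, 3 of the 63 genes rose with Gl-2 against HCD and 0 fell, beside 0.996% of all genes. Mfsd7b, known as the haem exporter Flvcr1, rose by 0.76 (SE 0.10, adjusted p = 8.78e-07), from 7.60, 7.70 and 7.84 to 8.54, 8.39 and 8.50. Id1 rose by 0.63 (SE 0.09, adjusted p = 1.12e-05), from 7.37, 7.37 and 7.36 to 8.13, 7.72 and 8.14, while kidney Bmp6 differed by 0.12 (SE 0.08, adjusted p = 0.783). Alas1 rose by 0.49 (SE 0.08, adjusted p = 0.000351), from 10.57, 10.38 and 10.61 to 11.03, 10.89 and 11.10. For each of these 3 genes the adjusted p against HCD passed in all 13 alternative settings. Against Control the same 3 genes rose by 0.66 (Mfsd7b), 0.53 (Id1) and 0.52 (Alas1), and so did Alas2, the haem synthesis enzyme of red cell precursors, by 0.35 (adjusted p = 0.0232), beside 0.874% of all genes. Against Control, Mfsd7b and Alas1 passed in all 13 alternative settings, Id1 in 11 (lost with pools A and B alone and with the compared groups only) and Alas2 in 6. Without pool C, 2 of the 63 thus passed, beside 0.897% of all genes. The haemoglobin gene Hbb-bs rose with Alas2 in that comparison, by 0.46 (adjusted p = 0.0232), and the part of blood in the Alas2 value was not tested.

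In the other 5 comparisons of diets in kidney, 0 of the 63 genes passed by limma, with 0 to 6 at an unadjusted p under 0.05 per comparison. The share of all genes that passed there was 0.131% for HCD against Control, 0.267% and 0.222% for Gl-1 and simvastatin against HCD, and 0.0634% and 0.0906% for these against Control. In brain 0 of the 63 passed in any of the 7 comparisons, with 1 to 11 at an unadjusted p under 0.05. Without pool C, 2 passed for HCD, 3 for Gl-1, 2 for Gl-2 and 6 for simvastatin against Control in brain, and 1 for simvastatin against HCD. Of all genes, 4.86%, 4.76%, 5.82% and 7.9% passed in these comparisons with Control, and 0.226% in that of simvastatin with HCD. With all arrays the share of all genes was 0.0543% for HCD against Control, 0.0181%, 0.0362% and 0.0181% for Gl-1, Gl-2 and simvastatin against HCD, and 0.0136%, 1.47% and 0.0861% for the same treatments against Control.

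**Figure D5:**
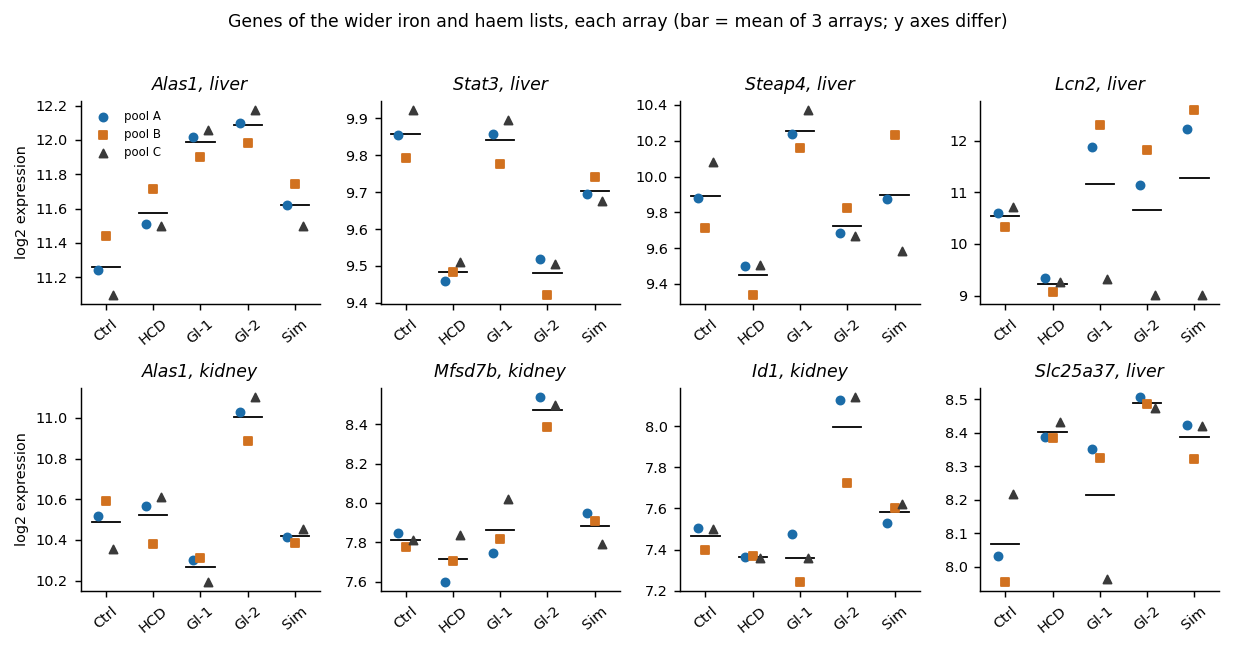
Log2 expression (y axes, which differ) of genes of the wider iron and haem lists by diet (x axis) in liver or kidney, with circles, squares and triangles for pools A, B and C and bars for means of 3 arrays. Alas1 is highest in both extract groups in liver and in HCD+Gl-2 in kidney, Mfsd7b and Id1 are highest in HCD+Gl-2 in kidney, and Lcn2 splits pools A and B from pool C in the treated livers.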

How the data were processed

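RNA pools of liver, kidney and brain were measured on 45 arrays. The authors applied RMA background correction, quantile normalization (oligo) and ComBat, and reduced each gene to its most variable probe set by interquartile range, and their log2 values are what was deposited. Array intensities were not used, so the number of arrays limits the precision. Among the 22080 genes of the table, 13 names had become dates. Groups came from the labels. limma 3.58.1 (R 4.3.3) fitted 15 group means over all 45 arrays, its variances were moderated by empirical Bayes with a prior of 7.34 degrees of freedom, and p-values were adjusted by Benjamini-Hochberg over the 22080 genes of each comparison. The procedure was tested on simulated data. Permuting 3 arrays against 3 cannot give a p under 0.1. The genes and lists were chosen with earlier results of these data known. All 10 genes are named, and from wider lists those past the threshold and up to 4 per list with the largest differences; other genes named for their role were chosen after their values were seen. Promoters came from RefSeq. Alternatives were fits per tissue, per pair of groups, without pool C, with the pool letter as a block, on genes with a mean log2 of at least 5, after renewed quantile normalization, with trended and robust moderation, without the fold threshold and without each array.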

Additional observations from a re-analysis of the deposited data

How the results depend on the processing

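No called difference changed sign under any alternative run. Hamp2 was the 1 gene called in liver for Gl-1, Gl-2 and simvastatin against HCD, and for Gl-2 and simvastatin against Control. For Gl-2 it was called in every alternative run, which gives no support, because the gene was picked for these low values. The genes were chosen by these liver values of Hamp2, so its calls here are no test of a diet. They only describe how far the count depends on the processing. For Gl-1 against HCD the number of the 10 genes called went from 1 to 0 with pools A and B only, with liver arrays only, after renewed quantile normalization and with the arrays of the 2 groups only, and without single arrays it ranged from 0 to 1 (0 without HCD array B, HCD+Gl-1 array A or HCD+Gl-1 array C). For simvastatin against HCD it was 0 with liver arrays only, after renewed quantile normalization and with the 2 groups only. For simvastatin against Control it was 0 under those same settings and with pools A and B only, and ranged from 0 to 1 without single arrays (0 without Control array B or HCD+Sim array C). Alternatives chosen after seeing the data were the wider iron genes with pools A and B only and a fit that left out HCD+Sim liver arrays A and B, with the lone array C assumed to vary like the other groups; in the latter Hamp2 differed from HCD by -1.54. The other 292 counts of called genes were within 1.5 times the main count, and kidney and brain stayed at 0. Between diets of a tissue, 3 of 30 pairs of groups had all correlations of deviations over 0.1 (range -0.382 to 0.421), so the pool letters did not pair samples there. With the pool letter as a replicate block the counts of called genes in liver were 1 for each treatment against HCD, as without it. Arrays of different tissues may share mice, and pairing between tissues was not examined. Of the wider iron genes, those that most often lost the adjusted p in liver were Blvrb (simvastatin against Control), and Alas1 and Slc25a37 (each for HCD and simvastatin against Control). In kidney it was Alas2 (Gl-2 against Control). Differences under the threshold rest on 3 arrays from 2 pools, and a low signal such as Hamp outside liver, or one near the upper end such as Hamp in liver, limits what could be detected.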
